A study of Mus musculus with 16 samples.

Results

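Lipocalins are small secreted proteins that fold into a barrel and carry fatty, poorly soluble molecules in its pocket. The epithelium of the epididymis, the duct in which sperm mature, secretes several of them into the fluid around the sperm, and most of their genes lie side by side in a cluster. They include Lcn5, which binds retinoic acid, and Ptgds, which both makes prostaglandin D2 and carries lipids. Lcn2 stands outside the cluster, binds iron-carrying siderophores and is also known as a product of neutrophils.

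The 8 genes described here were Lcn2, Lcn5, Lcn6, Lcn8, Lcn9, Lcn10, Lcn12 and Ptgds, out of 21069 genes that the peak lists of the series name. A peak was taken as theirs when it carried one of these names as its nearest gene or when its annotation named one of their RefSeq transcripts, which found 38 of 159135 peaks. The lists came from sperm of 4 male mice of the Dnmt2-/- line on C57BL/6, aged 6 to 8 months, which lack the RNA cytosine methyltransferase Dnmt2. Males 1 and 2 had been kept on a normal diet (ND). Males 3 and 4 had been fed a high-fat diet (HFD) with 21% butter from the age of 4 weeks. From each male, free RNA (F) and RNA attached to DNA (D) were sequenced apart, which gave 8 libraries, 1 per male and fraction. The sperm had been purified by centrifugation. C57BL/6 libraries without the mutation were not analysed here, so every value below comes from mutants.

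A peak here is a stretch of the genome in which the authors' peak caller found more tags than in the surrounding 10000 bases. Its score is a tag number scaled to a common total, and within each list scores rose in whole steps, so that each could be read back as tags. A peak whose centre lay in an exon, a UTR, a promoter-TSS or a TTS (the end of a transcript) is called a transcript peak, and peaks in introns or between genes are given apart. The lists held 3427 to 49918 peaks of 170 to 400 bases in width, and 964727 to 9913043 tags in peaks. The lowest score in a list ranged from 4.51 to 14.7, so a gene with no peak may still have had RNA under this limit. All peaks were written on 1 strand, and reads in the sense and antisense direction could not be told apart. Markers of sperm themselves were uneven too. Of 15 genes of spermatids and sperm, 11 had a transcript peak in F of male 1 and 1 in F of male 4, where 42.8% and 2.46% of all genes did. In the 6 further libraries 0 of the 15 had one. By the transcript that a peak names, the count in F of male 1 was 9.

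All 8 genes lie on mouse chromosome 2 (GRCm38), and they share a sequence hallmark. Near the start of the mature protein, lipocalins carry a glycine and a tryptophan with 1 residue between them. The letters GGNNNNTGG, read in frame on the coding strand, spell this as codons. They were searched for in coding bases 61 to 210 of each gene, which leaves out the first 20 codons, in GENCODE M21 transcripts. All 8 lipocalins held a match, against 4.94% of 21442 protein-coding genes. In all 8 the match began after the first 6 bases of exon 2, a placing found in 0.214% of the genes searched (46 genes). This placing was read off the 8 genes, which are among the 46, so its rarity is not a test. The 30 bases from the start of the match are shown, with the match in capitals. Only the match was searched for, and the bases after it were not aligned between the genes.
Lcn8: GGATTCTGGaaggaagtggctgttgcttct
Lcn5: GGCTTCTGGtatgaaattgcccttgcctcc
Lcn10: GGCTTCTGGtacattattgccatcgccaca
Lcn6: GGTCCCTGGtatgtcctggctgtggcctcc
Lcn9: GGGACCTGGtacctcgattccatagcctca
Lcn12: GGAGAGTGGtttgtcctcggtctggcagac
Ptgds: GGGCGCTGGtacagcgcgggcctcgcctcc
Lcn2: GGCAGGTGGtacgttgtgggcctggcaggc

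These stretches lie at chr2:25654167-25654196 for Lcn8, chr2:25658324-25658353 for Lcn5, chr2:25683521-25683550 for Lcn10, chr2:25677088-25677117 for Lcn6 and chr2:25823566-25823595 for Lcn9, all on the plus strand. Those of Lcn12 (chr2:25493323-25493352), Ptgds (chr2:25469092-25469121) and Lcn2 (chr2:32387129-32387158) are on the minus strand. The whole match lay under a peak in F of male 1 for Lcn8, Lcn2 and Lcn12. The Lcn8 stretch was under the highest lipocalin peak of the series, with a score of 1356.5. For Lcn9, 26 of the 30 bases were under a peak, and for Lcn10 20 of 30. For Lcn5, Lcn6 and Ptgds no base was, and in F of male 3 no base of any of the 8 stretches was under a peak.

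The lipocalin peaks were confined to 2 of the 8 libraries. F of male 1 (ND) held 28 of them and F of male 3 (HFD) held 10, while F of males 2 and 4 and all 4 D libraries held 0. In F of male 1, 8 of the 8 genes had a transcript peak, where 42.8% of all genes did. In F of male 3, 5 of the 8 had one (Lcn2, Lcn9, Lcn10, Lcn12 and Ptgds), where 8.33% of all genes did. In the libraries with no lipocalin peak, the share of all genes with a transcript peak was 1.05% in F of male 2 and 2.46% in F of male 4. It was 0.788%, 6.37%, 3.51% and 3.03% in D of males 1 to 4, so that 0 of 8 was near the level of all genes there. Without F of male 1, 5 of the 8 genes had a transcript peak in any library, and without F of males 1 and 3, 0 did. The D libraries of males 1 and 2 had the most tags in peaks, 9913043 and 9763352, against 3030709 in F of male 1 and 1209036 in F of male 3.

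**Figure D1:**
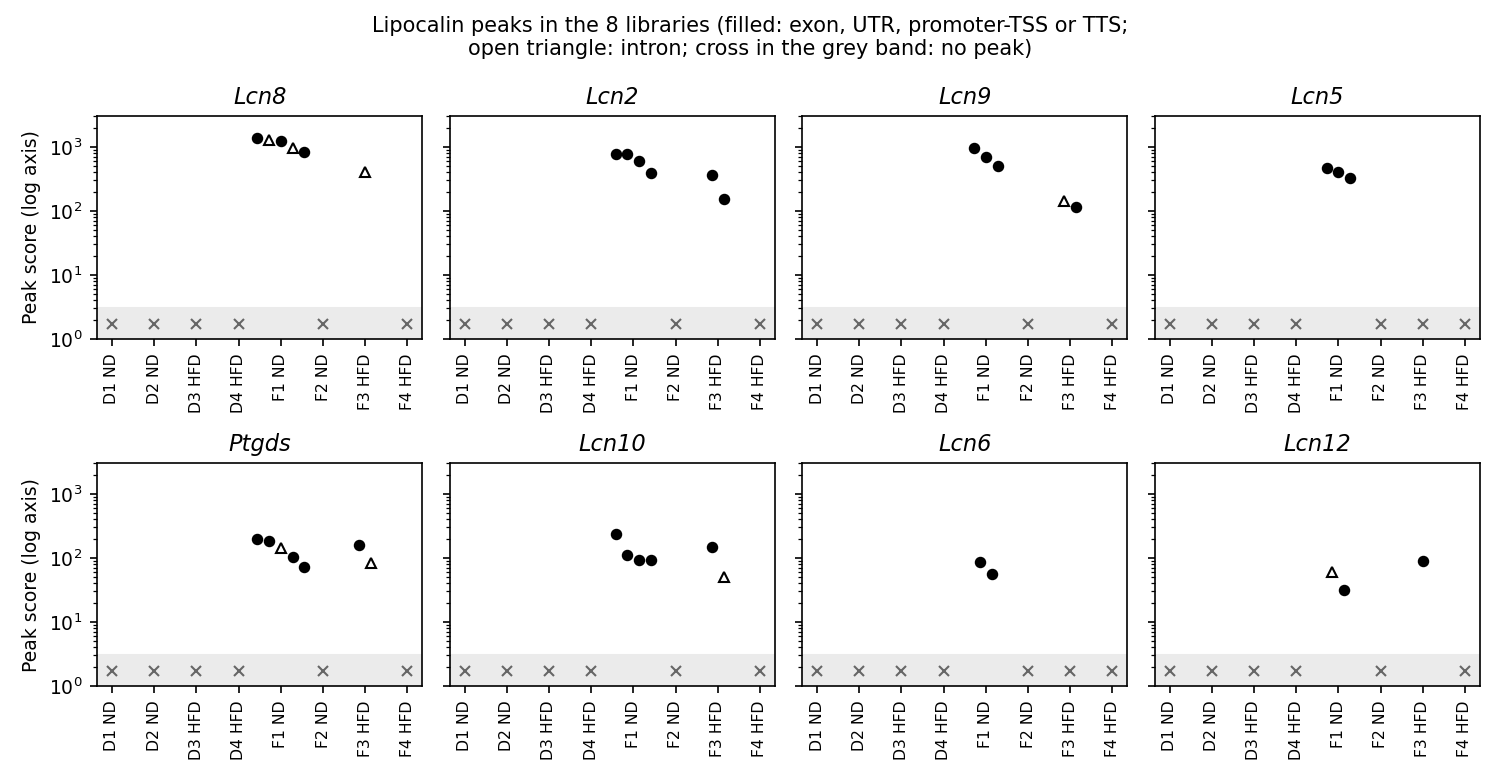
Score of every lipocalin peak (y axis, log scale) in each of the 8 libraries (x axis, fraction, male number and diet), with 1 panel per gene. Points of 1 library are spread sideways by score, and a cross marks a library with no peak. Peaks stand over F of male 1 for all 8 genes and over F of male 3 for 6 of them, and every other library is marked with a cross.

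Lcn8, a lipocalin secreted in the first part of the epididymis, had the highest scores. The gene (chr2:25653120-25656217) had 5 peaks in F of male 1, which between them touched 6 of its 7 exons and covered 73.4% of the bases of its transcript. The exon 2 peak scored 1356.5 (rank 70 of 25406 peaks, 906 tags, 95% exact Poisson interval 848 to 967). Its peak at the transcript end scored 1250.2 and its exon 3 peak 843.0. The other 2 peaks were annotated to introns. One of them, at 1271.2, shared 91 of its 170 bases with exons 4 and 5, and the other, at 958.3, shared 80 bases with exon 1. In F of male 3 the only Lcn8 peak was annotated to intron 6, with a score of 407.0 (rank 87 of 10143). It shared 101 bases with exon 7 and overlapped the transcript-end peak of F of male 1. For both of these 3' peaks the lists name Lcn5 as the nearest gene, although the transcript they name is that of Lcn8.

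Lcn5, the epididymal retinoic acid-binding protein, lies directly downstream at chr2:25657952-25661977. It had 3 peaks in F of male 1, with scores of 467.2 in exon 3, 402.8 in the 3' UTR and 323.4 in exon 5. They ranked 183 to 266 of 25406. No peak fell on Lcn5 in F of male 3. The gene was thus well above the 37.4 that was the median over 7074 genes in F of male 1, each taken by its highest transcript peak, and unlisted in the other library that held lipocalins.

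Lcn9 (chr2:25823153-25825537), another secreted lipocalin of the cluster, scored 944.8 in its 3' UTR, 697.7 in exon 2 and 503.1 in exon 4 in F of male 1. Its 3' UTR peak scored 114.5 in F of male 3. A second peak there, at 144.2, lay in intron 1 and began with the first base after exon 1, so that it held no exon base.

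Lcn2, the siderophore-binding lipocalin, is 6559.1 kb from the end of Lcn9 (chr2:32384633-32388252, minus strand). It had peaks in F of males 1 and 3, as did Lcn8, Lcn9, Lcn10, Lcn12 and Ptgds of the cluster, but not Lcn5 and Lcn6. Its 4 peaks in F of male 1 scored 771.1 at the promoter-TSS, 768.1 in the 3' UTR, 609.4 in exon 2 and 393.8 in exon 5. The promoter-TSS peak lay downstream of the start, with 151 of its 170 bases in exon 1. Of its peaks in F of male 3, the 3' UTR one scored 366.8 (rank 98 of 10143) and the exon 1 peak 154.8. Both 3' UTR peaks name 1110008P14Rik as the nearest gene. Lcn2 was the highest of the 8 genes by transcript peak in F of male 3, and Lcn8 in F of male 1.

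Ptgds, the prostaglandin D2 synthase at the other end of the cluster (chr2:25466709-25470046, minus strand), had 5 peaks in F of male 1 with scores from 71.9 to 197.6. The highest was in exon 1, and its intron 2 peak (140.7) shared bases with exons 2 and 3. The exon 1 peak scored 156.9 and the intron 2 peak 82.7 in F of male 3. Lcn10 (chr2:25682726-25686081) had 4 transcript peaks in F of male 1, from 92.8 in exon 2 to 236.6 in the 3' UTR. Its 3' UTR peak scored 150.5 in F of male 3, where a peak of 50.9 in intron 3 shared 30 of its 226 bases with exons 3 and 4.

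Lcn6 and Lcn12 were the lowest. Lcn6 (chr2:25676786-25681608) had 2 peaks in F of male 1, at 86.8 in exon 3 and 55.4 in exon 1, and none in F of male 3. Lcn12 (chr2:25490845-25493911, minus strand), which like Lcn5 binds retinoic acid, had a peak of 31.4 in exon 2 in F of male 1 (rank 12799 of 25406, 21 tags, interval 13.0 to 32.1). A second peak, at 59.9, lay in intron 2, 209 bases from the nearest exon. The single peak of F of male 3, at 89.0, was annotated to the promoter-TSS but had 169 of its 226 bases in exon 1. Lcn12 was the only one of the genes with a transcript peak in both libraries whose highest transcript peak scored more in F of male 3. These peaks lay in different exons. Over all its peaks, the summed score was 91.3 in F of male 1 and 89.0 in F of male 3.

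**Figure D2:**
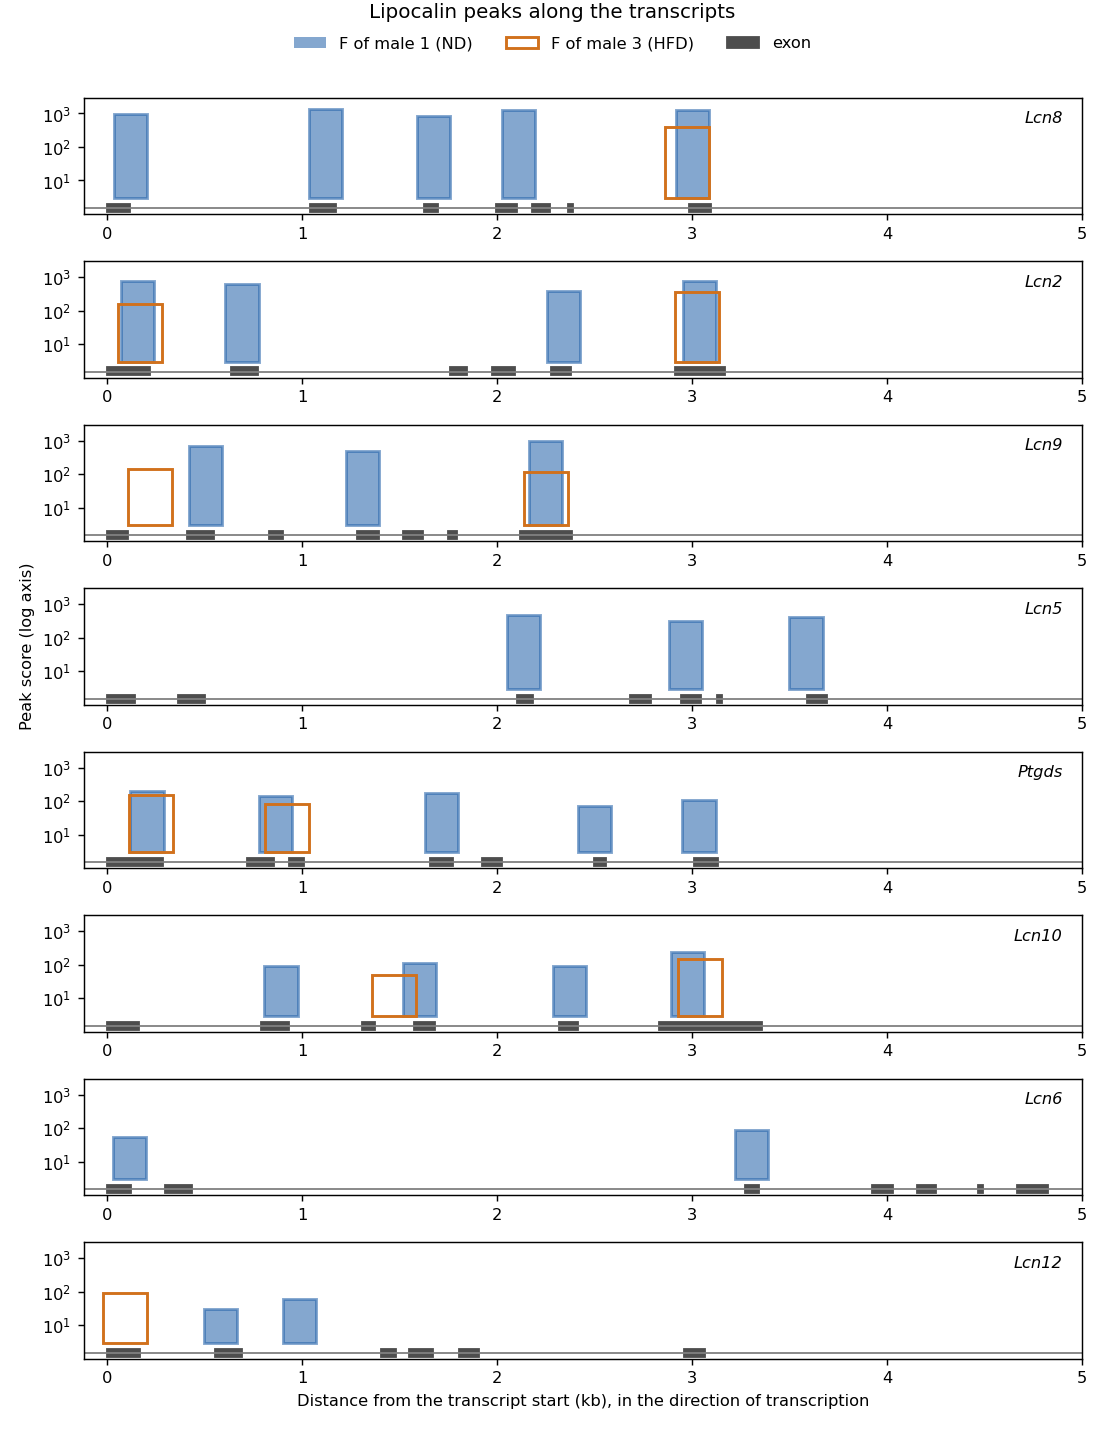
Peaks of F of male 1 (filled) and F of male 3 (outlined) along the 8 lipocalin transcripts. The x axis is the distance from the transcript start in kb, the y axis the peak score on a log scale, and the dark boxes under the bars are exons. Bars stand over exons in 36 of the 38 peaks, and the outlined bars of Lcn8, Lcn2, Ptgds and Lcn10 overlap filled ones, as does the 3' one of the 2 outlined bars of Lcn9.

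The peaks touched exons more often than their annotation shows, because the annotation reads only the centre of a peak. Of the 38 peaks, 30 were transcript peaks and 8 intron peaks, with 0 between genes. When the exons were laid over the whole width, 36 of the 38 shared bases with an exon of their own transcript, among them 6 of the 8 intron peaks. For exon and UTR peaks this follows from their class, so the intron peaks are what the overlay adds. A single shared base was enough, and reads across splice sites were not examined. Of all intron peaks outside repeats, 36.2% touched an exon of any gene in F of male 1 (979 of 2703) and 18.5% in F of male 3 (274 of 1480). The Wilson intervals at 95% were 34.4 to 38.0% for the former and 16.6 to 20.6% for the latter. In the 6 further libraries this share was from 3.05 to 7.06%. None of the 38 lipocalin peaks carried a repeat label in its annotation. No transcript peak of any gene in these 2 libraries carried one (0%), so the label says nothing about the 30 transcript peaks. Overlap with repeats was not measured. With a shared exon base as the rule, which was chosen after seeing the data, 6 of the 8 genes had a peak in F of male 3, Lcn8 being the addition. No other annotated gene overlaps the 8.

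Among the genes of F of male 1, 4 of the 8 lipocalins were in the top 1% by their highest transcript peak. Lcn8 ranked 16 of 7074 genes, Lcn9 23, Lcn2 30 and Lcn5 55, followed by Lcn10 at 155, Ptgds at 204, Lcn6 at 772 and Lcn12 at 4386. In F of male 3, Lcn2 ranked 22 of 1325 genes, Ptgds 86, Lcn10 91, Lcn9 180 and Lcn12 329. The 8 genes together took 0.287% of the summed peak score of F of male 1 and 0.067% of that of F of male 3. Of the score in transcript peaks alone, they took 1.08% and 0.676%.

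**Figure D3:**
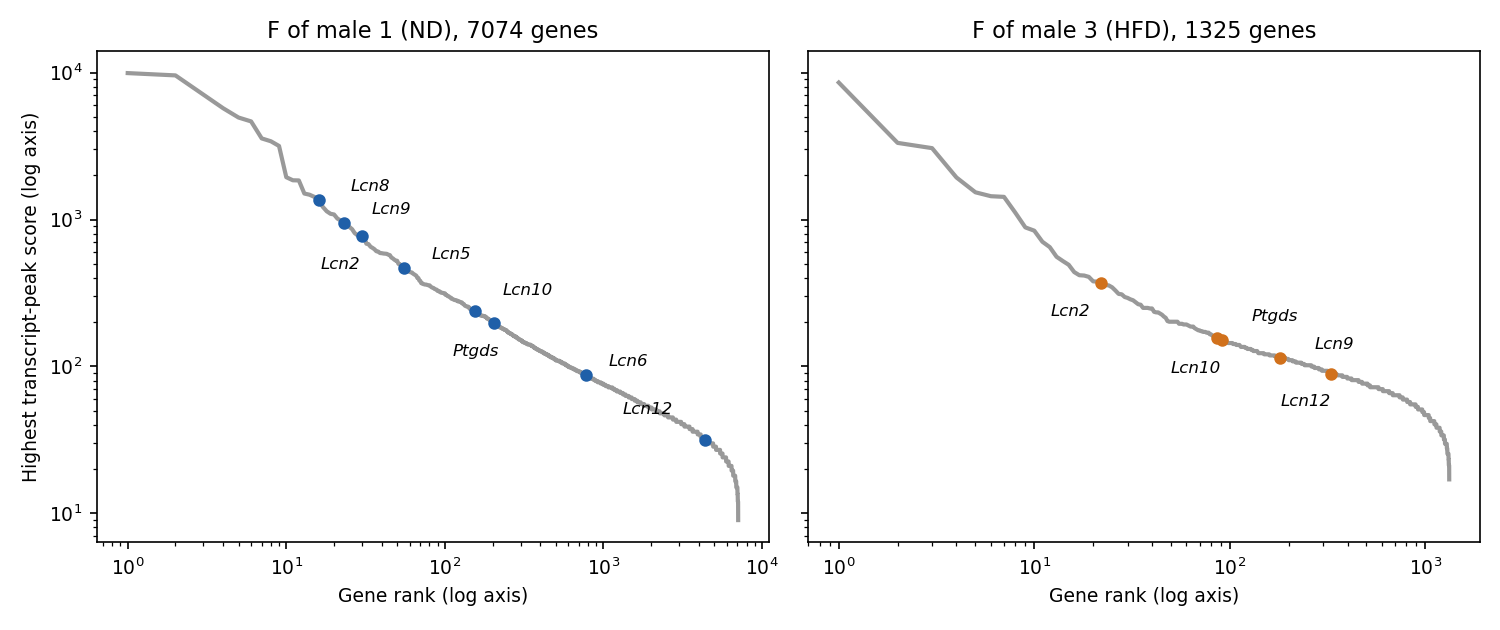
Highest transcript-peak score of every gene (y axis, log scale) against its rank in the library (x axis, log scale), for F of male 1 (left) and F of male 3 (right), with the lipocalins marked. Lcn8, Lcn9, Lcn2 and Lcn5 lie among the first 55 of 7074 genes on the left, and Lcn2 leads the 5 lipocalins on the right.

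To set the genes beside each other per length, the score of all peaks of a gene was summed and divided by the length of its transcript. In F of male 1, Lcn8 had a summed score of 8723.8 per kb, Lcn2 2778.6, Lcn9 2557.3 and Lcn5 1714.7. Ptgds followed with 773, Lcn10 with 483, Lcn6 with 195 and Lcn12 with 128. The summed scores per kb in F of male 3 were 625 for Lcn8, 570 for Lcn2, 308 for Lcn9, 266 for Ptgds, 182 for Lcn10 and 124 for Lcn12. The 6 genes listed in both libraries stood in the same order in each, but the distance from first to last was much smaller in F of male 3. Each value comes from 1 library, and no replicate spread can be put on this order.

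Where the 2 libraries shared a peak position, every lipocalin score was lower in F of male 3. Of its 6 transcript peaks, 5 overlapped a peak of F of male 1. The exception was the Lcn12 exon 1 peak. The score ratio of F of male 3 to F of male 1 was 0.121 (95% counting interval 0.0900 to 0.160) at the Lcn9 3' UTR. It was 0.201 (0.155 to 0.257) at Lcn2 exon 1 and 0.477 (0.40 to 0.568) at the Lcn2 3' UTR. The ratio was 0.326 (0.277 to 0.381) at the last exon of Lcn8 and 0.636 (0.474 to 0.847) at the Lcn10 3' UTR. At Ptgds exon 1 it was 0.794, with an interval of 0.589 to 1.06 that held equality. For the intron peaks of F of male 3 it was 0.588 (0.394 to 0.862) at Ptgds intron 2 and 0.459 (0.277 to 0.736) at Lcn10 intron 3. The 2 ends of Lcn2 thus differed, 0.201 against 0.477, by more than counting error. Peaks of F of male 3 were wider, 226 against 170 bases, and could hold more tags for the same coverage, which would raise these ratios. The intervals are exact binomial ones and cover counting error only, since PCR copies could not be separated from molecules.

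Over the 1102 genes with a transcript peak in both libraries, the ratio of the highest peaks had a median of 1.02, with quartiles of 0.625 and 1.61. Low genes had high ratios, because a gene enters this set only if it is listed in both. Over the 329 of them that scored at least 100 in F of male 1, the median was 0.482 and the quartiles were 0.333 and 0.725. On this scale Lcn2 was at 0.476, Lcn10 at 0.636 and Ptgds at 0.794, and Lcn9 was at 0.121, with 9 of the 329 genes (2.74%) under it. Lcn12, which scored under 100 in F of male 1, was at 2.83, from peaks in different exons. Of the 105 genes that scored at least 300 in F of male 1, 82 (78.1%) had a transcript peak in F of male 3. Of the 4 lipocalins at that level, Lcn2 and Lcn9 had a transcript peak there, and Lcn8 and Lcn5 had none. Lcn8 did have its intron 6 peak there, at 407.0, with 101 bases in exon 7, and would count by a shared exon base. Lcn5 had no peak of any class there.

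**Figure D4:**
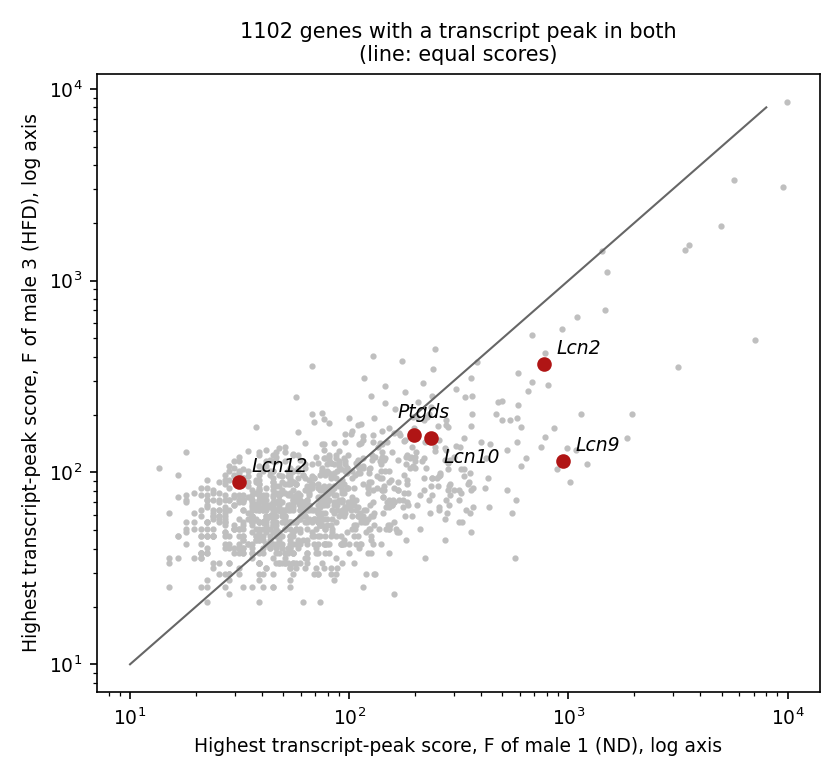
Highest transcript-peak score in F of male 3 (y axis) against F of male 1 (x axis), both on log scales, for the 1102 genes with a transcript peak in both (grey) and the 5 lipocalins among them (red). The line marks equal scores. Lcn9 and Lcn2 lie to the right of the line with most genes of high score, and Lcn12 lies above it.

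The fractions were compared within males, as the difference between F and D in the share of the summed peak score that a gene's transcript peaks took. D was at 0 for every gene and male. The mean share in F was 0.0191% ± 0.0264 (SD, n = 4 males) for Lcn2, 0.0190% ± 0.0380 for Lcn8 and 0.0129% ± 0.0230 for Lcn9. For the other 5 genes it was from 0.000783% (Lcn6) to 0.00658% (Lcn5). The SD exceeded the mean in all 8. For Lcn2, Lcn9, Lcn10, Lcn12 and Ptgds, F was higher in 2 of 4 males (exact sign-flip test, two-sided p = 0.5), and for Lcn5, Lcn6 and Lcn8 in 1 of 4 (exact p = 1). The smallest p this design allows is 0.125, so no difference could have passed 0.05.

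The diets were compared within F, with 2 males each. The mean share for Lcn2 was 0.0102% under HFD and 0.0280% under ND, a difference of -0.0178 percentage points. Lcn12 was the only gene with the higher mean under HFD (0.00174% against 0.000346%). The exact permutation test gave a two-sided p of 1 for all 8, where the smallest possible is 0.333. For Lcn2, Lcn9, Lcn10, Lcn12 and Ptgds each mean came from 1 male with peaks and 1 without. For Lcn5, Lcn6 and Lcn8 only male 1 had transcript peaks, and both HFD males were at 0. Diet and male cannot be told apart in these values.

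Of 36 further genes with a start within 100 kb of one of the 8 starts, 26 were named in a peak list. Of these 26, 14 had a transcript peak in F of male 1 and 6 in F of male 3, where 42.8% and 8.33% of all genes did, and 0 or 1 in each other library. With each peak given to its transcript's own gene first, the counts were 12 and 5. The gene 1110008P14Rik was counted in F of male 3 only as the nearest gene to the 3' UTR peak of Lcn2. Abca2, a lipid transporter gene near Ptgds, scored 215.6 and 114.5 in the 2 libraries, Bmyc between Lcn10 and Lcn9 178.2 and 97.5, and Edf1 80.9 and 123.0. Between Lcn10 and Lcn9 lie further lipocalin genes, and none of Obp2a, Obp2b, Lcn3 and Lcn11 had a transcript peak in either library. Tmem141 was the only neighbour listed in D libraries, with 12.9, 34.2 and 38.9 in D of males 2 to 4.

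Of 23 further genes of the lipocalin superfamily, 13 were named in a peak list at all. Of these 13, 6 (46.2%) had a transcript peak in F of male 1, near the 42.8% of all genes, and 0 had one in F of male 3. Apod, a lipid carrier, was highest at 80.9, followed by the urinary protein gene Mup4 at 65.9 and by Orm2 and Ambp at 32.9 each. Single further peaks were Orm1 in F of male 2 (45.2), Apod in F of male 4 (26.4) and Mup5 in D of male 2 (15.1). Mup and Orm genes are near-identical copies, and reads may have been split between them. In 4 of the 6, including Orm2 and Ambp, the peak named the gene as nearest and another gene's transcript.

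Of 7 uptake receptors, 5 had a transcript peak in F of male 1 and 0 in F of male 3, where 42.8% and 8.33% of all genes did. By the transcript that a peak names, 4 had one in F of male 1. Lmbr1l, a lipocalin receptor in human cells, scored 56.9, Lrp1 49.4 and Lrp2 (megalin), which takes up lipocalins in the kidney, 38.9. Lrp2 also scored 87.9 in D of male 3 and Lrp1 72.9 in D of male 4. The Lcn2 receptor Slc22a17 scored 32.9 in F of male 1.

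Of 17 genes that make, bind or sense retinoids, 10 were listed in F of male 1 and 4 (23.5%) in F of male 3, where 42.8% and 8.33% of all genes were. By the transcript that a peak names, 9 and 4 were. The retinaldehyde dehydrogenase Aldh1a1 scored 169.2 and 48.8 in the 2 libraries. The receptor Rxrb scored 71.9 in F of male 1 and Aldh1a2 41.9. The receptors Rxra, Rara and Rarg scored 38.9, 19.5 and 15 in F of male 1 and 86.9, 78.4 and 25.4 in F of male 3. Aldh1a2 also had a peak in F of male 4 (29.5) and Rara in D of male 2 (9.02).

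Of 18 genes of prostaglandin synthesis and signalling, 11 were listed in F of male 1 and 4 (22.2%) in F of male 3, where 42.8% and 8.33% of all genes were. By the transcript that a peak names, 10 and 3 were. The cyclooxygenase gene Ptgs2, which provides the precursor that Ptgds uses, scored 359.3 and 48.8. The prostaglandin transporter Slco2a1 scored 230.6 and 201.4, and Ptges, which makes prostaglandin E2, 128.8 and 144.2. Hpgd, which breaks prostaglandins down, scored 89.8 in F of male 1, and the receptor Ptger1 73.4 and 65.7. D of male 2 listed Ptger3 (11) and Hpgds (7.73).

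Of 8 regulators of the epididymis, 6 were listed in F of male 1 and 4 (50%) in F of male 3, where 42.8% and 8.33% of all genes were. Cebpb scored 79.4 and 70, Pax2 67.4 and 86.9, and Srd5a2, which makes dihydrotestosterone, 44.9 and 67.8. Pax2 also had a peak in D of male 2, of 9.02. In F of male 1 the share was 61.1% for prostaglandins, 58.8% for retinoids, 71.4% for receptors and 75% for regulators. Among all genes it was 42.8%. These lists hold 7 to 18 genes, so single genes move their shares, and no test was run. The spermatid and sperm markers reached 73.3% in this library, so a share above that of all genes was not particular to these lists. The lipocalins stood at 8 of 8.

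Markers of the epididymal epithelium were listed in the same 2 libraries as the lipocalins. Of 16 such genes, 16 had a transcript peak in F of male 1 and 8 in F of male 3, where 42.8% and 8.33% of all genes did, and their transcript-peak scores summed to 38270.4 and 5037.0. Gpx5 (4950.0), Crisp1 (1846.1) and Rnase10 (1218.8) had the highest peaks of the list in F of male 1. In the 6 further libraries 0 or 1 of them was listed, with sums of 0 to 62.2. Erythroid markers were listed for 5 of 6 genes in F of male 1, with Hbb-bs at 4658.0, for 0 in F of male 3 and for 2 in F of male 4, although the globin genes are near-identical copies. Neutrophil markers, which bear on Lcn2, were listed for 2 of 10 genes in F of male 1 (Ltf at 133.3 and Ngp at 21.0), a share under that of all genes, and for 0 in the other 7 libraries. S100a8, S100a9, Elane and Mpo had no transcript peak in any library. Other leukocyte markers were listed for 3 of 8 genes in F of male 1, 2 in D of male 2, 1 each in D of male 3 and F of male 4, and 0 in F of male 3. Leydig and Sertoli markers were listed for 4 of 8 genes in F of male 1 and 1 in F of male 3. Markers of the choroid plexus and meninges, which also make Ptgds, were listed for 1 of 4 genes each in F of male 1 and D of males 2 and 3. In F of male 1 these last 3 lists were near the share of all genes, or under it. Some of these counts rest on peaks that name the marker as nearest gene and another gene's transcript. By the transcript alone, F of male 1 listed 2 erythroid, 1 neutrophil, 2 Leydig and Sertoli, and 0 choroid plexus and meninges markers. The erythroid count depends on the globin names, since the list did not hold the globin gene Hbb-b1. By transcript, Hbb-b1 had a summed score of 6317.0 in F of male 1. F of male 3 listed 0 Leydig and Sertoli markers, and F of male 4 listed 1 erythroid marker. The epididymal epithelium stayed at 16 and 8. The part of these cells in the lipocalin peaks was not tested. In bulk sperm, fewer cells of a type and less RNA per cell cannot be told apart.

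**Figure D5:**
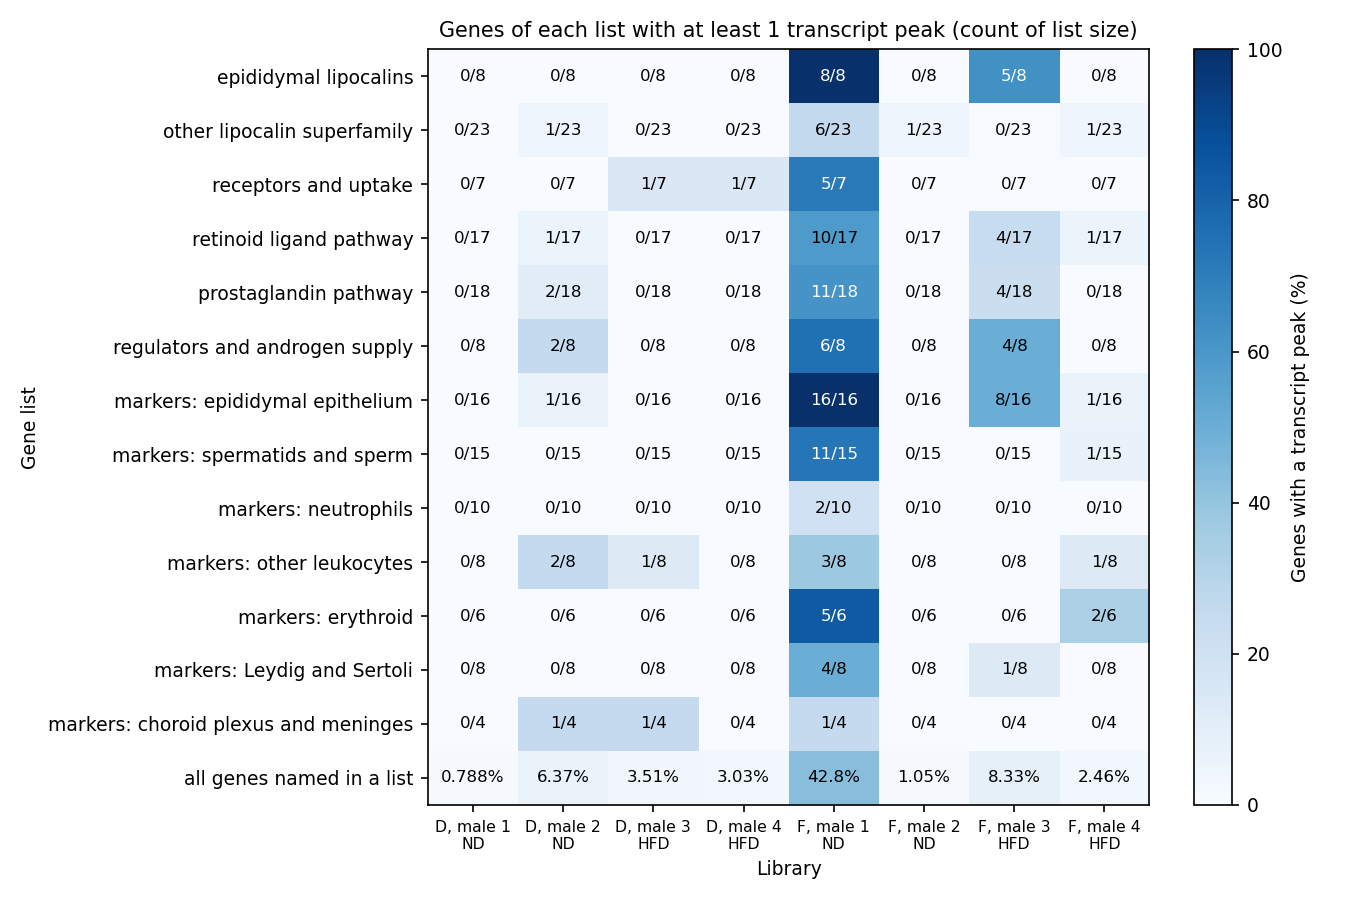
Share of the genes of each list with at least 1 transcript peak (colour, in %) in each of the 8 libraries (x axis), with the count of the list size written in each field. The lowest line gives all genes named in any list. The epididymal lipocalins (8/8 and 5/8) and the markers of the epididymal epithelium (16/16 and 8/16) are filled in F of male 1 and F of male 3.

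The genes most like the lipocalins in pattern were sought over the 8 libraries, by the distance between log10 of the summed transcript-peak score plus 1. Nearest to Lcn8 (3449.7 in F of male 1 and 0 elsewhere) among 9035 genes were Gsn, an actin-severing protein gene, at a distance of 0.143, the globin gene Hbb-b1 at 0.263 and the transporter gene Abca3 at 0.310. Their summed scores in F of male 1 were 2482.5, 6317.0 and 1689.0. The 0 of Lcn8 in F of male 3 leaves out its peak of 407.0 there, annotated to intron 6 with 101 bases in exon 7. Whether the same genes would be nearest with that peak counted was not tested. Nearest to Lcn2 (2542.4 and 521.6) was Ces5a, a carboxylesterase gene, at a distance of 0.0284 with 2636.7 and 494. Ftl1, for the ferritin light chain, followed at 0.106 with 1999.0 and 544.8, and Actb, for beta-actin, at 0.198 with 1804.2 and 385.9. All 6 had a summed score of 0 in the 6 further libraries.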

How the data were processed

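Sperm RNA of 4 Dnmt2-/- males was sequenced by the study as F and D libraries. The authors trimmed reads (cutadapt, Trimmomatic 0.36), aligned them to GRCm38 and called peaks in each library on its own with HOMER 4.9, which also annotated them. The deposited peak score was used. Its unit is not given in the sources used here, and since scores under 100 were whole multiples of 1 step within 0.2 of a tag, it was taken as tags scaled to a common total. The authors left replicates unpooled. No per-sample column was left out (0 columns), and 8 C57BL/6 libraries were not analysed here.

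Scripts ran in Python (version 3.11.15) with scipy 1.17.1 for intervals, pandas 2.3.3 for tables and matplotlib 3.10.9 for plots. Counts of genes took a peak for its nearest gene and for the gene of its transcript. Scores, ranks and shares took it for the transcript's gene first. Exons came from GENCODE M21 (GRCm38), and gene symbols of transcripts from RefSeq (GRCm38.p6). D and F of a number came from the same male, which pairs them. Since D was at 0 for the 8 genes, no correlation of deviations could be had. Tests were exact, and functions were tested on simulated data. Males are the replicates, and intervals on single peaks cover counting error only.

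The members and gene lists were chosen with earlier results of these data known. Named were the 8 lipocalins, of each further list the 4 genes highest in F of male 1 and every one listed in F of male 3 or a further library, up to 3 markers of a list, and the 3 genes nearest in pattern to the lipocalin highest in each of the 2 libraries. A few genes that this rule takes are not reported here by name. Slc22a17, Abca2, Bmyc, Edf1, Tmem141 and the markers listed at no score were named after their values were seen. Alternatives changed the peak classes, the gene assignment, the score minimum, the pairing, the males, the repeats and the overlap.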

Additional observations from a re-analysis of the deposited data

Results flagged for a closer look

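In F, 4 of the 8 lipocalins had 1 male far above the other 3, past Dixon's 95% limit for a group of 4. For Lcn5, Lcn6 and Lcn8 the other males were all at 0, so that this says no more than that only 1 male had a transcript peak. The usual chance rate of about 1 in 20 groups cannot be applied to them. The male far above the others was male 1 each time. Lcn8 also had a peak of 407.0 in F of male 3, which was annotated to intron 6 and so left out of its share. The share of the summed peak score was 0.0760% for Lcn8, 0.0263% for Lcn5 and 0.00313% for Lcn6, with 0 in the other 3 males. For Lcn9 it was 0.0473%, with 0.00447% in male 3 as the next value. The 4 genes share the library, so that they are not 4 separate signs. F of male 1 also held the most genes with a transcript peak of all 8 libraries, and the part of this in the lipocalin values was not tested.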

How the results depend on the processing

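The 64 alternative counts of genes per library stayed within 1.5 times the main ones, F of male 1 at 7 to 8 and F of male 3 at 4 to 7 of 8 genes. With any peak class F of male 3 gave 7, since the intron 6 peak of Lcn8 names Lcn5 as nearest gene. Of the F of male 3 transcript peaks, 5 overlapped F of male 1 by at least 50% of both peaks and 4 by 90% of the shorter one. Over all libraries, 8 genes had a transcript peak, 8 without F of male 3, 5 without F of male 1 and 0 without both (chosen after seeing the data). Without the pairing of D and F by male, the F minus D difference for Lcn2 was the same 0.0191 percentage points, with an exact unpaired p of 0.429 (0.429 to 1 over the 8 genes).

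With 1 male left out at a time, the F minus D difference ranged from 0 to 0.00877 percentage points for Lcn5, 0 to 0.00104 for Lcn6 and 0 to 0.0253 for Lcn8, being 0 without male 1. It ranged from 0.00678 to 0.0255 for Lcn2, 0.00149 to 0.0172 for Lcn9, 0.00196 to 0.00588 for Lcn10 and 0.00204 to 0.00612 for Ptgds, lowest without male 1, and from 0.000231 to 0.00139 for Lcn12, lowest without male 3. The HFD minus ND difference ranged from -0.0459 to 0.0102 for Lcn2, -0.0263 to 0 for Lcn5, -0.00313 to 0 for Lcn6, -0.0760 to 0 for Lcn8, -0.0450 to 0.00223 for Lcn9, -0.00884 to 0.00294 for Lcn10, -0.000346 to 0.00313 for Lcn12 and -0.00918 to 0.00306 for Ptgds. It turned positive without male 1 for Lcn2, Lcn9, Lcn10 and Ptgds, barely so for Ptgds without male 4 (5.22e-07), and negative for Lcn12 without male 3. With exon and UTR peaks only, it was -0.000346 for Lcn12. No p passed 0.05 in any of these. The sign-flip test within males and the test of 2 against 2 males could not have passed it (smallest p 0.125 and 0.333). The unpaired test over 8 libraries, with 70 splits, had no such limit from its number of splits. With 4 males, single peaks of 21 to 906 tags and 2 libraries that hold all lipocalin peaks, neither fraction nor diet could be resolved.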
